A study of Arabidopsis thaliana with 6 samples.

Results

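Among the transcripts measured across early reproduction in Arabidopsis thaliana, 53 probe sets of 22746 were already raised in the open, pollinated flower and stayed near that level in the young silique. A probe set is a group of oligonucleotides on the array that reports 1 transcript or a few similar ones. The members were chosen by the signals themselves. After every signal under 25 was set to 25, the lowest of the 4 flower and silique arrays had to be at least 2 times the higher of the 2 bud arrays, and the flower and silique means had to differ by less than 2-fold. All 3 comparisons between stages were therefore used or bounded by that choice, so the values of the members are given as descriptions. Counts of members called by a fit over all probe sets are given beside the share of all probe sets called, and nothing is read from them.

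The study used Affymetrix ATH1 arrays on total RNA from wild-type plants of accession Landsberg erecta, 6 weeks old, grown in 16 h of light and 8 h of darkness at 21 degrees. The 3 groups, of 2 arrays each, were buds still closed just before pollination, open flowers after pollination, and siliques, the young fruits, taken 2 d after pollination with the withering floral organs removed. Each sample pooled 12 plants, and the whole experiment was run again for the other replicate. Buds and flowers were harvested entire, so sepals, petals, stamens and pistil are mixed in them, whereas siliques hold only what grew from the pistil. In such bulk samples fewer cells of a type and less RNA per cell cannot be told apart.

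Pollination turns the flower from display to fruit growth. The petals and stamens are shed, the ovary wall elongates into the valves of the silique, the integuments around each fertilised ovule become the seed coat, and endosperm and embryo begin to grow. Among the members named below are kinds of gene product known from cell death, the cell wall and organ size. What they do in this period was not tested.

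The 6 arrays were close in brightness, but their median signals fell by stage. They were 48.1 and 48.3 in buds, 45.4 and 43.8 in flowers, and 41.5 and 41.6 in siliques. Probe sets at a signal of 50 or more fell likewise, from 11192 and 11179 in buds to 10878 and 10735 in flowers and 10455 and 10482 in siliques. Arrays of the same stage correlated at r = 0.936 to 0.963 over the log2 signals of the 12075 tested probe sets, and arrays of different stages at 0.733 to 0.870. With 2 arrays a stage the number of arrays limits the precision.

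Of the 53 members, 23 were paired with 1 gene each in the array annotation, and these cover 22 genes because AT2G31110 has 2 probe sets. The RefSeq gene table for TAIR10.1 matched 22 of them by gene ID and AT1G67865 by its locus name only. The other 30 had no listed gene and can be named only by probe set. Just 7 of the 23 carry a symbol other than a locus code: DELTA-VPE, GILT, PRX52, scpl41, scpl35, ARL and NQR. The table's synonyms add PRX71 for AT5G64120 and TBL40 for AT2G31110.

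The members spanned a wide range of brightness. Their median signal was 42.5 and 41.3 on the bud arrays of replicates 1 and 2, 209 and 173 on the flower arrays, and 214 and 202 on the silique arrays. For comparison, the median probe set among the 12075 bright enough to be tested had a mean of 121 in buds, 117 in flowers and 115 in siliques. Signals of different probe sets are not comparable as amounts of transcript. The choice itself fixed flower and silique signals of 50 or more, and bud signals low relative to these but not low in themselves. Both bud arrays were under the floor of 25 for 14 members, 1 was under it for 9, and neither for 30. Where both lay under the floor, a fold below is given as "at least", counted against 25. Across members the flower mean was 2.08 to 22.8 times the floored bud mean (median 4.00), and the silique mean 2.18 to 27.3 times (median 4.54). Both highest values were those of 248918_at, whose flower arrays lay 10.5-fold apart. The lowest flower or silique array stood 4 or more times above the higher bud array for 12 members and under 3 times for 32.

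**Figure D1:**
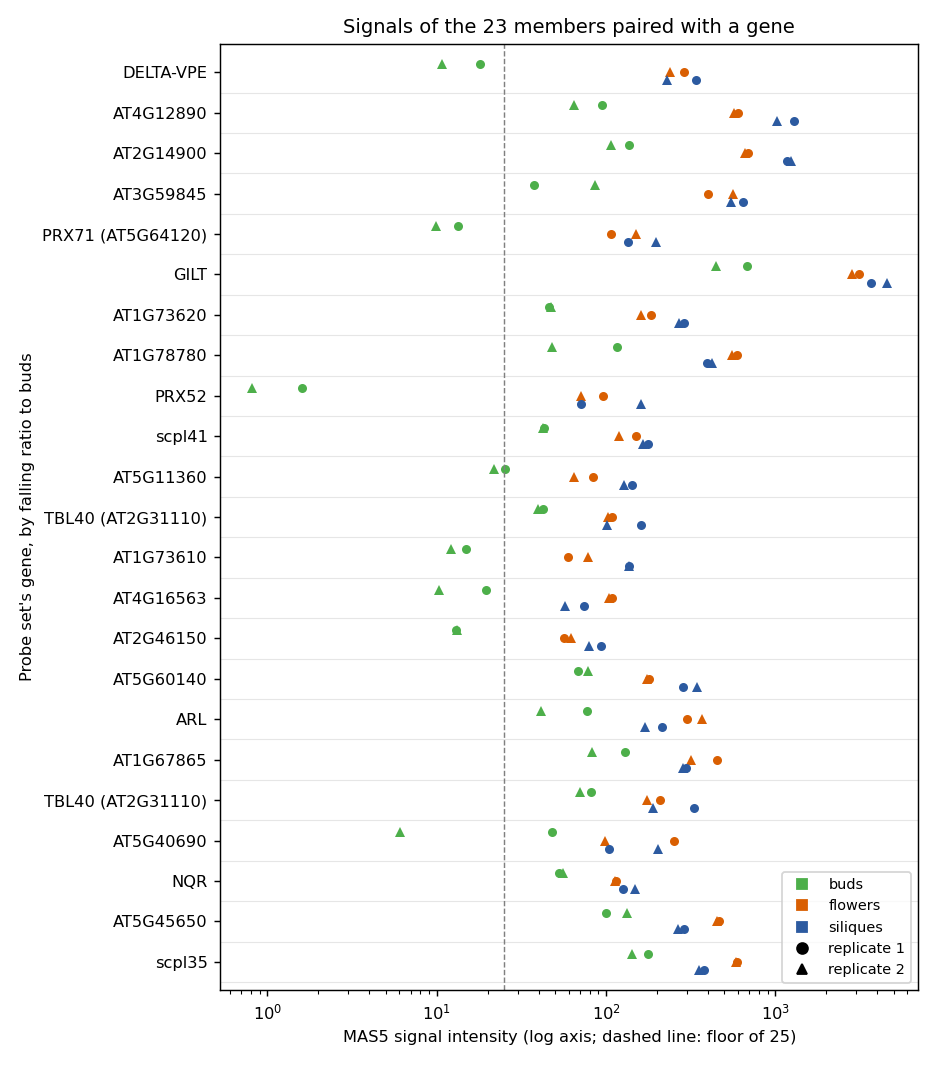
MAS5 signal intensity (horizontal log axis) of the 23 members paired with a gene, with a point for each array: green buds, orange flowers, blue siliques, circles for replicate 1 and triangles for replicate 2. In each row the 4 flower and silique points lie to the right of both bud points, from PRX52 with a bud array at 0.81 to GILT with a silique array at 4539, and the dashed line marks the floor of 25.

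DELTA-VPE (AT3G20210) had the largest ratio to buds among the identified members, with its lowest flower or silique array 9.19 times the higher floored bud array. It encodes a vacuolar processing enzyme, a caspase-like protease known from the inner integument layers of the seed coat, where it takes part in the programmed death of those cells. Its signal was 18.0 and 10.8 in buds, 289 and 239 in flowers, and 339 and 229.8 in siliques. The bud arrays were both under the floor, and the flower and silique arrays overlapped. Its flower mean of 264 ± 34.9 (SD, n = 2) was at least 10.6-fold above buds, and its silique mean of 284 ± 76.9 (SD, n = 2) at least 11.4-fold.

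The other vacuolar processing enzymes on the array had levels of their own, and whether their courses differ from that of DELTA-VPE was not tested. BETA-VPE, known for processing seed storage proteins, had 118 and 116 in flowers, against 60.8 and 40.6 in buds (limma log2 change 1.08 ± 0.21, SE, adjusted p = 0.0241). In siliques it was at 13.6 and 14.2, a log2 change against flowers of −2.41 ± 0.21 (adjusted p = 0.00285). The call of its rise in flowers was lost without flowers replicate 1, flowers replicate 2 or buds replicate 2 (adjusted p = 0.0814 to 0.140), and that of its fall in siliques against buds (log2 change −1.32 ± 0.21, adjusted p = 0.00920) without siliques replicate 1 (0.0518). GAMMA-VPE, known from vegetative organs, was at 475 and 211 in buds, 959 and 679.7 in flowers, and 366 and 363 in siliques, and passed in none of the 3 comparisons. ALPHA-VPE reached at most 15.5 on any array and was not tested.

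The silique mean of DELTA-VPE was 1.08 times its flower mean. Of the seed coat markers measured, the pigment genes BAN and DFR were higher in flowers than in buds and higher again in siliques, and INO passed in no comparison. BAN, which encodes anthocyanidin reductase and acts in seed coat tannin synthesis, was at 665 and 658 in siliques, against 17.3 and 35.9 in flowers (log2 change 4.25 ± 0.26, adjusted p = 0.00154), and at 0.85 and 0.617 in buds. Its log2 change in flowers against buds was 1.72 ± 0.26 (adjusted p = 0.00887), a call lost when only the arrays compared were fitted (0.0555). DFR, dihydroflavonol reductase, was at 748 and 894 in siliques and at 205 and 281 in flowers (log2 change 1.73 ± 0.19, adjusted p = 0.00521), and at 14.6 and 15.7 in buds, with a log2 change in flowers against buds of 3.31 ± 0.19 (adjusted p = 0.000387). INO, known from the outer integument, was at 70.2 and 71.8 in buds, 77.6 and 67.6 in flowers, and 55.1 and 76.1 in siliques (adjusted p = 0.663 to 0.958). Whether the difference between DELTA-VPE and these genes exceeds their spread was not tested.

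The brightest member was GILT (AT4G12960), named for a gamma-interferon-responsive lysosomal thiol reductase, which in mammals reduces disulfide bonds of proteins inside lysosomes. Its signal was 675 and 445 in buds, 3121 and 2823 in flowers, and 3682 and 4539 in siliques. Flowers stood 5.31-fold and siliques 7.34-fold above buds, and both silique arrays lay above both flower arrays. AT4G12890, which is separated from GILT by 6 protein-coding genes on chromosome 4, was the third member by ratio to buds. It was at 94.4 and 64.4 in buds, 598 and 570.1 in flowers, and 1289 and 1015 in siliques, which is 7.36-fold above buds in flowers and 14.5-fold in siliques.

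Of the genes lying between these 2, a stretch looked at after the members were known, 3 had a probe set of their own in the annotation. None of the 3 was a member. The carboxypeptidase-like gene scpl20 was at 391 and 323 in siliques, against 79.5 and 82.0 in flowers (log2 change 2.01 ± 0.16, adjusted p = 0.00225), and it was at 66.2 and 54.7 in buds (flowers against buds adjusted p = 0.226). UND reached at most 7.88 and AT4G12930 at most 41.8 on any array, too dim to be tested. The calls of scpl20 in siliques, against flowers and against buds, held in all 14 alternative settings of the fit.

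A second pair of neighbours, AT1G73610 and AT1G73620, are adjacent on chromosome 1. AT1G73620 was at 45.9 and 47.0 in buds, 183 and 162 in flowers, and 288 and 269 in siliques. AT1G73610, much dimmer before opening, was at 14.9 and 12.1 in buds, 59.6 and 77.8 in flowers, and 136.3 and 136.1 in siliques. In both genes the stages form 3 separate steps with no overlap, and the silique mean was 1.62 times the flower mean for AT1G73620 and 1.98 times for AT1G73610. Beyond such pairs, 15 genes next to a member were tested that were not members themselves. None of them was called higher in flowers or in siliques than in buds by limma, and at an unadjusted p under 0.05 there were 1 in flowers and 2 in siliques. Over all tested probe sets 4.53% were called higher in flowers and 7.03% in siliques, so a count of 0 among 15 is near the background and says nothing particular of the neighbours.

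Both peroxidases among the members were dim in buds, under the floor on each bud array. PRX52 (AT5G05340), a class III peroxidase known from lignin formation, was at 1.59 and 0.81 in buds, 96.1 and 71.2 in flowers, and 71.4 and 162 in siliques. Its flower mean was at least 3.35-fold and its silique mean at least 4.66-fold above buds, and the silique arrays differed from each other by 2.26-fold. PRX71 (AT5G64120), of the same class, was at 13.4 and 9.90 in buds, 107 and 149 in flowers, and 135 and 196 in siliques, at least 5.13-fold above buds in flowers and 6.61-fold in siliques.

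Of the 7 peroxidase genes that the symbols and synonyms pick out, only 3 reached the filter, and the third was PRXR1. It was at 1819 and 1628 in siliques, against 824 and 782 in flowers (log2 change 1.09 ± 0.17, adjusted p = 0.0133) and 813 and 1053 in buds (log2 change 0.89 ± 0.17, adjusted p = 0.0168). PRXR1 was thus bright in every stage and highest in siliques. Its call against buds was lost without buds replicate 1, siliques replicate 1 or siliques replicate 2 (adjusted p = 0.0586 to 0.0887), and that against flowers without siliques replicate 1 or either flower array (0.0759 to 0.0871).

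TBL40 (AT2G31110) belongs to the trichome birefringence-like family, several of whose proteins add acetyl groups to wall polysaccharides. Its dimmer probe set read 42.5 and 39.7 in buds, 109 and 102 in flowers, and 159.6 and 101 in siliques. The brighter one read 81.2 and 69.9 in buds, 209 and 173 in flowers, and 330.4 and 189 in siliques. Both probe sets gave the same picture, with flowers 2.57-fold above buds on the dimmer one and 2.53-fold on the brighter, and siliques higher in replicate 1 than in replicate 2.

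The family as a whole was mixed. Its 23 genes have 24 probe sets, of which 14 were tested. Against buds, 3 were higher and 2 lower in flowers, and 6 higher and 2 lower in siliques, with the 2 TBL40 probe sets among the higher in each. Over all tested probe sets 4.53% were called higher and 6.13% lower in flowers, and 7.03% higher and 8.52% lower in siliques. The median log2 change of the tested probe sets was −0.01 in flowers and 0.29 in siliques, beside −0.01 and −0.00034 over all tested probe sets. TBL36 and TBL41 were raised in siliques against buds (log2 changes 2.32 ± 0.22 and 2.34 ± 0.22, adjusted p = 0.00107 and 0.00102). TBL41 was also called in flowers against buds (1.06 ± 0.22, adjusted p = 0.0287), a call lost with an offset of 50 and when a single bud or flower array was left out, whichever it was (0.0671 to 0.142). The families were put together after the members were known, from symbols and synonyms.

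Members scpl41 (AT5G42230) and scpl35 (AT5G08260) encode serine carboxypeptidase-like proteins, a family that includes both proteases and acyltransferases. The first was at 43.1 and 42.4 in buds, 151 and 119.8 in flowers, and 177 and 165 in siliques. The other was brighter, at 177 and 142 in buds, 590.2 and 582 in flowers, and 376 and 355 in siliques. They differ in order: siliques lay above flowers for scpl41, at 1.27 times the flower mean, and flowers above siliques for scpl35, at 0.62 times.

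Among the 29 carboxypeptidase-like genes with a probe set, 18 were tested. Against buds, 4 were higher and 3 lower in flowers, and 5 higher and 3 lower in siliques, members included, where over all tested probe sets the shares were 4.53% and 6.13% in flowers and 7.03% and 8.52% in siliques. The median log2 change was 0.14 in flowers and 0.55 in siliques, beside −0.01 and −0.00034 over all tested probe sets. scpl48 was at 1326 and 1085 in flowers, against 984 and 956 in buds (adjusted p = 0.274), and its log2 change in siliques against buds was −1.58 ± 0.15 (adjusted p = 0.00105). SCPL49 was lower in both later stages, with log2 changes of −1.61 ± 0.18 in flowers (adjusted p = 0.00268) and −1.83 ± 0.18 in siliques (adjusted p = 0.00121). The family therefore held genes called in opposite directions.

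**Figure D2:**
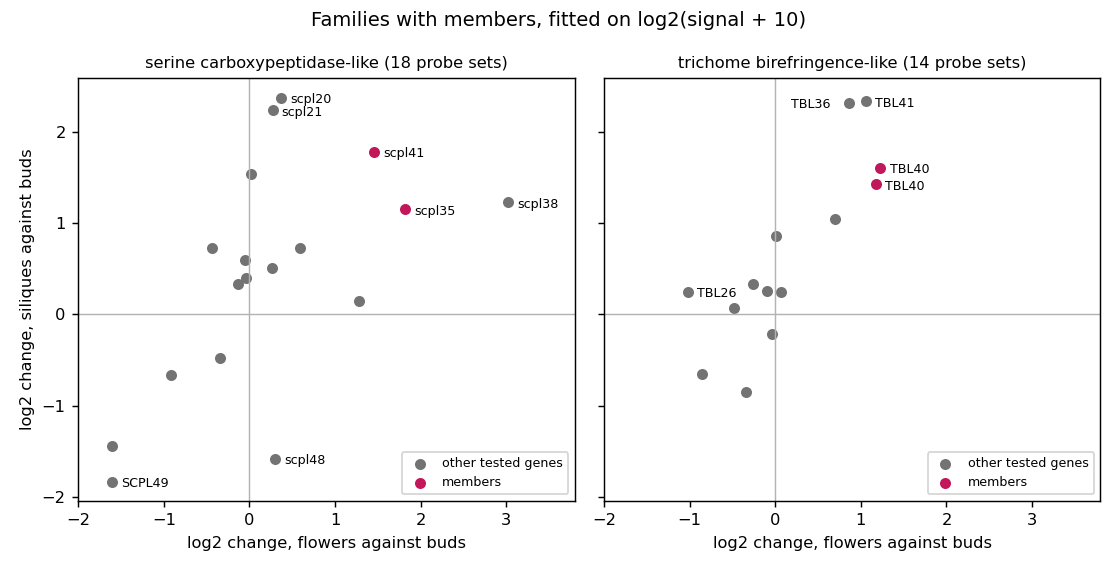
log2 change of flowers against buds (horizontal) and of siliques against buds (vertical) for the tested probe sets of the serine carboxypeptidase-like family (left, 18) and the trichome birefringence-like family (right, 14), fitted by limma on log2(signal + 10). The members, in magenta, lie in the upper right as the choice requires, while scpl20 and TBL36 are high mainly in siliques and SCPL49 is low in both stages.

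ARL (AT2G44080), ARGOS-like, promotes the growth of organs through cell expansion. It was at 76.7 and 41.3 in buds, 301 and 367 in flowers, and 214 and 170.1 in siliques. Its silique mean was 0.57 times the flower mean, the lowest ratio of any member, and the arrays of the 2 stages did not overlap. NQR (AT3G27890), an NADPH:quinone oxidoreductase, which reduces quinones, had a small step: 52.6 and 56.0 in buds, 114 and 113 in flowers, and 126 and 148 in siliques.

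The members known only by locus code differed in which of the later stages was higher. AT2G14900 was at 137 and 107 in buds, 692 and 665 in flowers, and 1173 and 1233 in siliques. AT5G60140 was at 68.3 and 77.7 in buds, 180.3 and 175 in flowers, and 286 and 342 in siliques. In both the silique arrays lay above the flower arrays. AT5G11360 was at 25.3 and 21.9 in buds, 83.5 and 65.0 in flowers, and 143 and 128 in siliques. AT2G46150 was at 13.0 and 13.1 in buds, 56.3 and 62.3 in flowers, and 93.2 and 78.9 in siliques. These 2 had the same order at lower signals.

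Others stood highest in flowers. AT1G78780 was at 116 and 48.0 in buds, 591 and 556 in flowers, and 394 and 422 in siliques. AT5G45650 was at 99.8 and 133 in buds, 462 and 454 in flowers, and 288 and 266 in siliques. The same order held for a dim member, AT4G16563, at 19.5 and 10.2 in buds, 109 and 104 in flowers, and 74.1 and 56.9 in siliques. AT1G67865 was at 129 and 82.6 in buds, 451 and 315 in flowers, and 298 and 285 in siliques. None of these 4 overlapped between flowers and siliques. In AT3G59845 the stages after opening did overlap: it was at 37.6 and 86.3 in buds, 401 and 565 in flowers, and 645 and 547 in siliques.

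Among the 30 members with no listed gene were the highest ratio and 2 of the 3 brightest members. The highest ratio of all was that of 262119_s_at, at 17.7 and 22.0 in buds, 342 and 379 in flowers, and 477 and 522 in siliques. Its suffix marks oligonucleotides shared by several similar transcripts. The brightest were 247717_at, at 984 and 461 in buds, 2186 and 2063 in flowers, and 3125 and 3396 in siliques, and 266415_at, at 382 and 399 in buds, 1542 and 1431 in flowers, and 1317 and 1608 in siliques. The median flower mean was 186 for these 30 and 178 for the 23 with a gene, and the median silique mean was 196 for these 30 and 259.6 for the 23.

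In limma fits over all 12075 tested probe sets, 50 of the 53 members were called higher in flowers than in buds, where 4.53% of all were, and 52 higher in siliques than in buds, where 7.03% were. None was called lower, against backgrounds of 6.13% in flowers and 8.52% in siliques. These counts follow from the choice, and every member passed the filter on brightness for the same reason. The member not called in either stage was AT5G40690, and 248918_at and 264261_at were not called in flowers. All 3 had widely split arrays.

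**Figure D3:**
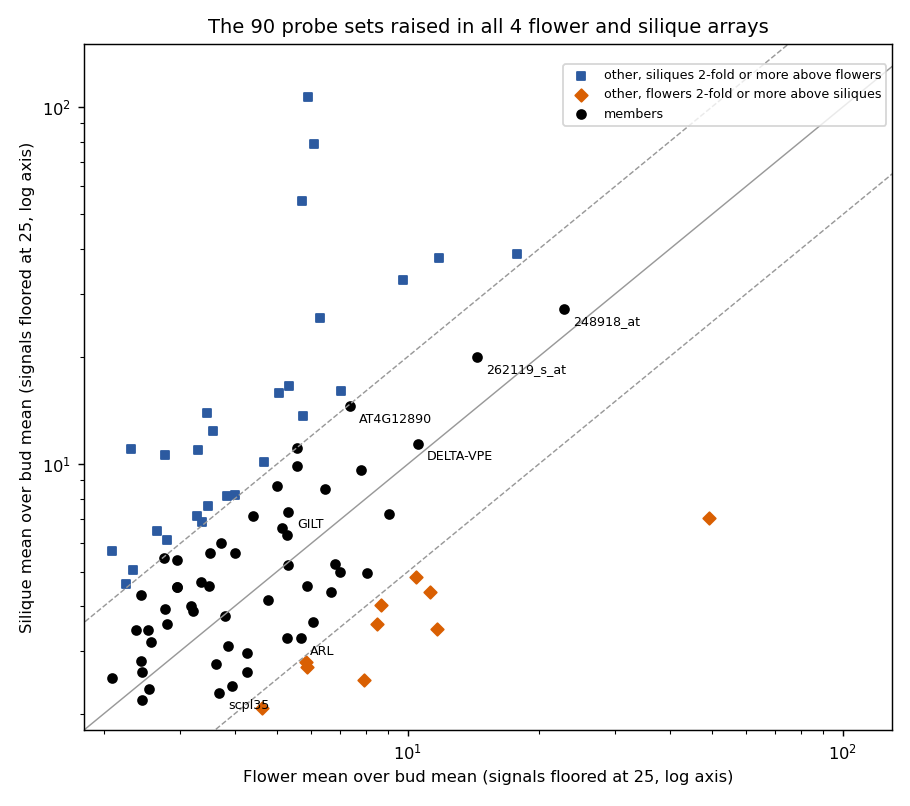
Flower mean over bud mean (horizontal) and silique mean over bud mean (vertical), both from signals floored at 25 and on log axes, for the 90 probe sets whose 4 flower and silique arrays were all at least 2 times the higher bud array. The 53 members (black) lie between the dashed 2-fold lines around equality, 27 others (blue squares) lie above the band and 10 (orange diamonds) below it.

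Without the limit on the flower to silique ratio, 90 probe sets would qualify. Of the 37 left out by it, 27 had a silique mean 2-fold or more above the flower mean and 10 the reverse. The limits fall between probe sets of nearly equal ratio. Just inside were 247869_at, with a silique to flower ratio of 1.99, AT1G73610 at 1.98 and AT4G12890 at 1.97. Just outside were 250083_at at 2.041, AT3G05460 at 2.043 and 246932_at at 2.048. At the other limit, scpl35 (2.001 times the higher bud array), AT5G45650 (2.006) and NQR (2.013) were just inside, and 257129_at (1.997), AT5G18840 (1.994) and 247403_at (1.98) just outside.

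Between siliques and flowers the members were divided. The silique mean exceeded the flower mean in 33 members and fell short of it in 20, with a median ratio of 1.21. The silique arrays lay wholly above the flower arrays in 23 members, where 33.2% of all tested probe sets had that order, and wholly below in 12, where 29.2% did. The remaining 18 overlapped. By limma 9 members were called higher in siliques than in flowers (background 7.23%) and 3 lower (7.45%), and these counts too were bounded by the choice. Without any 1 of the flower or silique arrays limma called 0 members in either direction, while 11 to 14 were higher and 4 to 6 lower in siliques at an unadjusted p under 0.05, and 251 to 665 probe sets were called in all.

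A few members were split within a stage. The higher flower array was a median of 1.13 times the lower one, and the higher silique array 1.18 times, beside 1.14 and 1.16 over all tested probe sets. In 6 members the arrays of flowers or siliques lay more than 2-fold apart. The extreme was 248918_at, at 37.3 and 4.05 in buds, 1298 and 123 in flowers, and 486 and 1211 in siliques. AT5G40690 was at 48.2 and 6.05 in buds, 251 and 98.1 in flowers, and 103 and 202 in siliques.

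Of these 6 split members, 5 were higher in flowers replicate 1 than 2 and in siliques replicate 2 than 1: 248918_at, 264261_at, 266292_at, AT5G40690 and PRX52. The sixth was 259790_s_at. Across all 53 members the replicate 1 minus replicate 2 differences of siliques and flowers had a Pearson correlation of −0.50, beside 0.17 over the 12075 tested probe sets. Without the 6 it was −0.10. The points share the same 4 arrays, and what moved these transcripts was not tested.

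**Figure D4:**
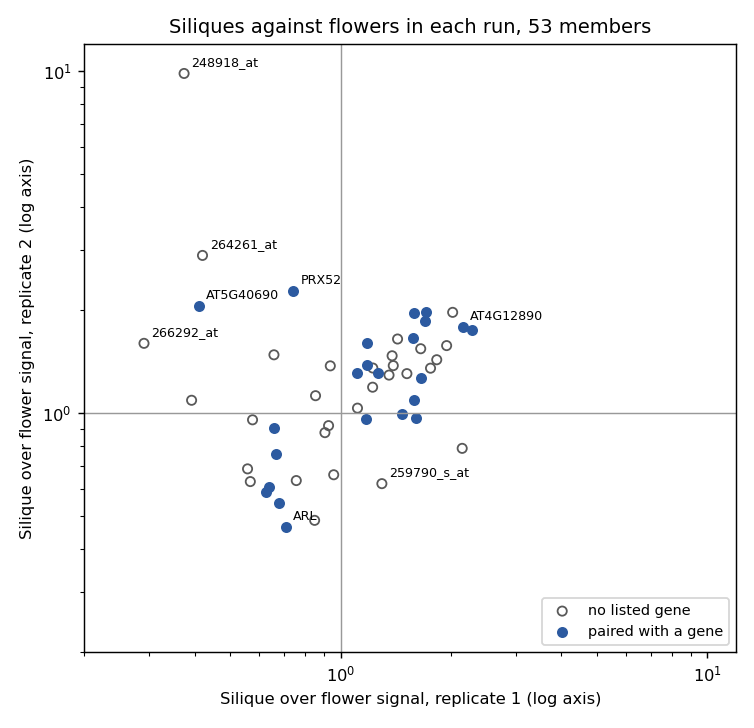
Silique over flower signal of the 53 members in replicate 1 (horizontal) and replicate 2 (vertical), on log axes, with filled points for members paired with a gene and open ones for the rest. In 25 members siliques were higher in both runs and in 14 flowers were higher in both, while 9 lie in the upper left, where flowers were higher in replicate 1 and siliques in replicate 2, and 5 in the lower right. The same counts over all tested probe sets were not made.

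The run-by-run ratios give the same account. Siliques exceeded flowers in both runs for 25 members and flowers exceeded siliques in both for 14. The order turned between runs in 14 more, with flowers higher in replicate 1 and siliques in replicate 2 in 9 of them. In 12 members the 2 stages differed by more than 2-fold in at least 1 run, although the means did not. How many of all tested probe sets show each of these orders was not counted, so nothing is read from these numbers.

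Because the choice used all 6 arrays, the pattern was also read in arrays that had not been used to choose. The same limits applied to the 3 arrays of replicate 1 alone picked 111 probe sets. In replicate 2, 73 of these (65.8%) again stood at least 2-fold above buds in both flowers and siliques, where 1.23% of all probe sets did, and 60 met every limit. Their median lower ratio was 2.31 in replicate 2 and 2.47 in replicate 1, where they had been picked. Picking on replicate 2 gave 179 probe sets, of which 76 (42.5%) held both ratios in replicate 1, with a background of 0.708%, and 60 met every limit. The median lower ratio was then 1.82 in replicate 1 and 2.50 in replicate 2.

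**Figure D5:**
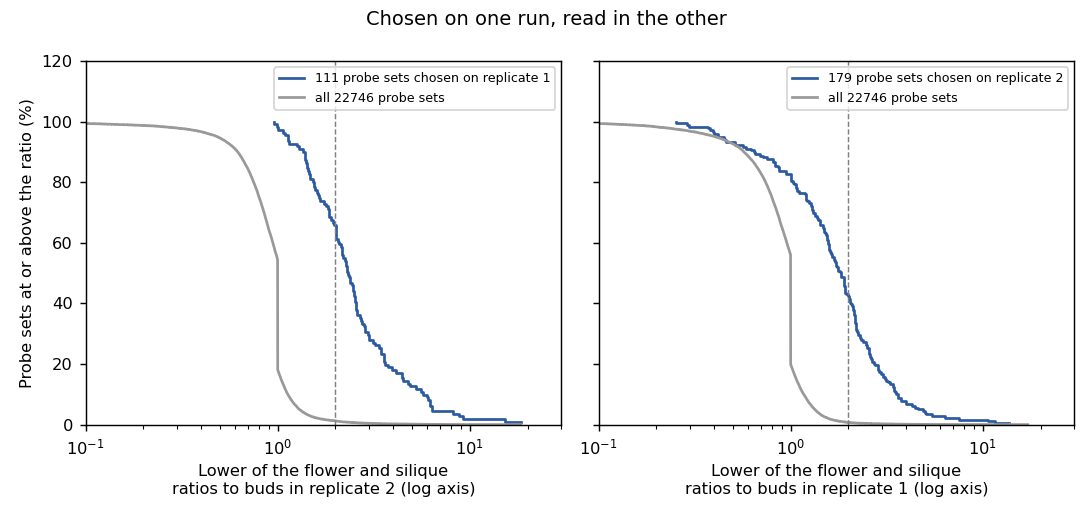
Share of probe sets (vertical, %) whose lower ratio of flowers or siliques to buds reaches the value on the horizontal log axis, read in replicate 2 for the 111 chosen on replicate 1 (left) and in replicate 1 for the 179 chosen on replicate 2 (right), with all 22746 probe sets in grey. At the dashed 2-fold line the chosen sets stand at 65.8% and 42.5%.

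Only the 23 members paired with a gene could be looked up in gene lists. None of them was on the 12 lists of pathway genes drawn up for the comparison of these stages, which cover photosystems, wall loosening, aquaporins, auxin, gibberellin, ethylene, jasmonate, senescence, defence, cold and drought, glucosinolates and the circadian clock. The lists are short selections, so absence from them does not show that a member lies outside these pathways. Few list genes had a probe set that the array annotation paired with them alone. In the wall-loosening list 10 of 31 genes were tested. Of these, 3 were higher than in buds in flowers and 2 in siliques, with 0 lower. Their median log2 change against buds was −0.25 in flowers and 0.25 in siliques. In the auxin list 4 of 23 were tested, with 2 higher in each stage and 0 lower, and medians of 0.70 and 0.96. Of the 6 genes tested on the photosystem list, which also holds RCA, a gene for Rubisco activase, 0 passed in flowers. In siliques 3 of the 6 were higher and 0 lower. Their medians were −0.03 and 0.52. Over all tested probe sets 4.53% were called higher and 6.13% lower in flowers, and 7.03% and 8.52% in siliques. The medians over all were −0.01 and −0.00034. Of the remaining 9 lists, aquaporins and glucosinolates had no probe set so paired. That is a gap in the annotation and does not show that the array lacks these genes. The defence gene with a probe set was too dim to be tested. The other 6 lists had 1 or 2 tested genes each. Among these, SAG29 was called higher in flowers than in buds, JMT lower in siliques than in buds, and COR15A lower in both.

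Markers of some tissues differed between the stages, and none of the 23 members paired with a gene was among them. All 4 tapetum markers measured, of 7, were called lower in flowers and in siliques than in buds, with summed signals of 2764 and 3920.0 in buds, 82.6 and 127 in flowers, and 91.5 and 79.9 in siliques. The 3 of 5 nectary and petal markers measured summed to 165 and 146 in buds, 1781 and 2154 in flowers, and 31.6 and 28.6 in siliques. SWEET9 and AT3G25810 were called higher in flowers than in buds, whereas BPEp was at 99.6 and 78.5 in flowers, against 88.4 and 127 in buds (log2 change −0.24 ± 0.27, adjusted p = 0.645). The 6 of 9 pollen markers, among them AGL67, which was entered under a mistaken locus, summed to 543 and 295 in buds, 403 and 459.6 in flowers, and 60.7 and 141 in siliques. Of the 4 tested, 1 was called lower in flowers than in buds and 2 in siliques. The 4 of 8 seed coat and endosperm markers summed to 90.7 and 94.3 in buds, 304 and 397 in flowers, and 1478 and 1636 in siliques, with BAN and DFR carrying the difference, while the endosperm gene AGL62 reached at most 12.2 on any array. The 2 of 6 valve and replum markers summed to 398 and 281 in buds, 302 and 213 in flowers, and 370.4 and 337 in siliques, and neither passed in any comparison. The part of these tissues in the members' signals was not tested.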

How the data were processed

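Signal intensity was measured on 6 ATH1 arrays. The authors deposited 1 intensity per probe set and array on a linear scale, and MAS5 is the tool named in the submitters' processing notes, with no version given. The trimmed mean of each array lay between 99.1 and 99.4, and no further scaling was done. The genome build is not given in the sources used here, so RefSeq TAIR10.1 was used for names and gene order only.

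The members and the gene lists were chosen with earlier results of these data known. The 64 control probe sets were left out. Signals were tested as log2(signal + 10) in limma 3.58.1 (R 4.3.3) with an intensity trend, over the 12075 probe sets at 50 or more on at least 2 arrays, all 3 stages in 1 fit, with Benjamini-Hochberg adjustment at 0.05. There were 3 residual degrees of freedom. The added 10 shrinks fold changes of dim probe sets. The fit was first run on simulated signals with planted changes and independent noise. That checks the code and not the calls made here. Because the replicates are separate runs of the experiment per the labels' protocols, their numbers pair the samples. The run 1 minus run 2 differences of the stages correlated at 0.34 for flowers and buds, −0.01 for siliques and buds and 0.17 for siliques and flowers.

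The rule for named genes covered members paired with a gene that carries a symbol or product name. It took the 15 with the largest ratio to buds and the 10 brightest. Members on a gene list or in a family with several members, and the 3 probe sets on each side of each limit, were added. List genes that are not members were to be given only as counts. The other members named, with or without a gene, the family genes, BAN, DFR, INO, SWEET9, BPEp and the remaining list genes fall outside this rule. They were named after their values were seen. Alternatives covered the floor, the factors, normalization, offset, filter, replicate block and each array left out. The search of promoter letters was not run, since no sequence was used here. AGL67 stands on the pollen list through a mistaken locus.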

Additional observations from a re-analysis of the deposited data

How the results depend on the processing

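The number of members depends on the limits that define them. It was 88 with a floor of 10, 177 with no floor, 131 with a factor of 1.5 above buds, 21 with a factor of 3, and 33 with a limit of 1.5 between flowers and siliques. Leaving out each array in turn gave 68 to 108, the highest without buds replicate 1, and kept 49 to 53 of the reported members. The limit against buds is looser by construction there, since its lowest and higher arrays are taken from fewer arrays. It stayed within 1.5 times the reported 53 with a floor of 50 (38), a limit of 3 (74), quantile normalization (65, 51 of them shared) and arrays divided by their medians (73, 50 shared). The members called in siliques against flowers numbered 3 higher and 0 lower with no filter on dim probe sets, where 15 and 6 passed at an unadjusted p under 0.05. Leaving out each array gave 0 to 10 higher and 0 to 4 lower. The corresponding ranges were 40 to 51 in flowers against buds and 41 to 52 in siliques against buds. With the replicate block the calls were 50, 52, 10 and 4, so pairing the runs ended none of these calls. Without the 6 split members, a setting chosen after seeing the data, the calls in siliques against flowers were 9 and 3. The share holding in the other run was 64.7% and 43.6% with a factor of 3, and 67.5% and 50.5% with a floor of 50. What else lies behind the differences between settings was not tested. Signals under 25 limit what can be said of the 14 members dim on both bud arrays.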
